A study of Rattus norvegicus with 65 samples.

Results

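The hypothalamic RNA of food-restricted rats was compared with that of lean rats. The members were chosen by label: all 7 libraries of the BWM group and all 6 libraries of the lean group, 13 of the 65 libraries of the series, each from 1 animal and all from batch A, 1 of the 2 experimental periods. All animals were adult male Wistar rats. BWM animals had been made obese on a high-fat diet, were sham-operated and were then given limited amounts of high- and low-fat diet so that their weight followed that of rats with Roux-en-Y gastric bypass. The lean label is not described further in the methods, and these animals were taken to be the group kept on low-fat diet alone. Their operation, if any, is not stated. Hypothalami were collected at 4 weeks, following a 10 h fast. Restriction cannot be told apart here from feeding history, diet and operation.

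The hypothalamus holds the neurons that adjust hunger to energy stores. In the arcuate nucleus, neurons making Agrp and Npy drive feeding and are activated by hunger, while neurons making Pomc and Cartpt restrain it, and both respond to leptin from fat tissue. Food restriction is known to raise Agrp and Npy in this nucleus, and it also raises circulating glucocorticoids in rodents.

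The depth was similar in both groups. Counts on genes ran from 26168268 to 32726395 per BWM library and from 27063885 to 33299714 per lean library, and the lean mean was the higher (two-sided exact permutation p = 0.272, adjusted over 3 measures p = 0.407). The 10 most abundant genes took 5.77% ± 2.15 of a BWM library (SD, n = 7) and 4.01% ± 0.726 of a lean library (n = 6; two-sided exact permutation p = 0.0524, adjusted p = 0.157). In BWM replicate 5 they took 10.1%, and without that library the BWM mean was 5.04% (exact permutation p = 0.0844). Without BWM 1, lean 2 and lean 5 the BWM mean was 2.11 percentage points above the lean mean (exact permutation p = 0.0381; neither p is adjusted). Mitochondrial rRNA and tRNA made up 1.08% ± 0.483 of BWM and 0.989% ± 0.258 of lean libraries (SD; exact permutation p = 0.677, adjusted p = 0.677).

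The tissue label was checked against marker genes. Avp and Oxt, the vasopressin and oxytocin genes of the magnocellular neurons, were near 0 in 3 libraries. Avp was 0.519 CPM (counts scaled to the effective library size) in BWM replicate 1, 1.08 in lean replicate 2 and 2.48 in lean replicate 5, and Oxt was 0.584, 0.0677 and 0.955. In the other 10 libraries Avp ran from 10.2 to 886 CPM and Oxt from 29.2 to 900, with the lowest values in BWM replicates 5 and 7. Trh, Hcrt and Pmch, which mark neurons of the paraventricular nucleus and the lateral hypothalamus, were also lowest in those 3 libraries. Of the 52 libraries of the other groups and batch, 2 had as little Avp and Oxt together. No marker of any list was at 0 in all 13 libraries.

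Markers of neighbouring tissue were high in some libraries. In BWM replicate 5 the pituitary hormone genes Gh1 and Prl reached 64783 and 13310 CPM. They reached 542 and 115 CPM in BWM replicate 7, and stayed at or under 6.14 and 3.11 CPM in the other 11 libraries. The list of 13 anterior pituitary markers includes Pomc, which arcuate neurons make too. The other 12 summed to 79536 CPM in BWM 5, 1276 in BWM 7, 452 in BWM 6 and 357 in lean 6, and to between 3.60 and 30.3 elsewhere. In BWM 6 Gh1 was 1.35 CPM. Markers of the striatum summed to 6498 CPM in BWM 1, against 385 to 1150 in the other BWM libraries and 863 to 2832 in lean libraries. Markers of cortex and hippocampus were highest in lean 2 (1765 CPM) and BWM 1 (1010 CPM). Choroid plexus markers summed to 2182 CPM in BWM 2 and 941 in BWM 3, and to between 18.9 and 101 in the lean group. The first principal component of the log-scaled counts held 38.6% of the variance. BWM 1, lean 5 and lean 2 lay at one end and BWM 7, BWM 6 and lean 6 at the other. The groups overlapped on it through BWM 1 (-115) and lean 6 (48.2). The other BWM libraries ran from 15.0 to 66.1 and the other lean libraries from -63.0 to 3.92. Counts over all genes are therefore given with and without BWM 5 and also without BWM 1, lean 2 and lean 5 (with 10 libraries), the latter a choice made after seeing the data, and values of some genes and lists are given again under these choices.

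**Figure D1:**
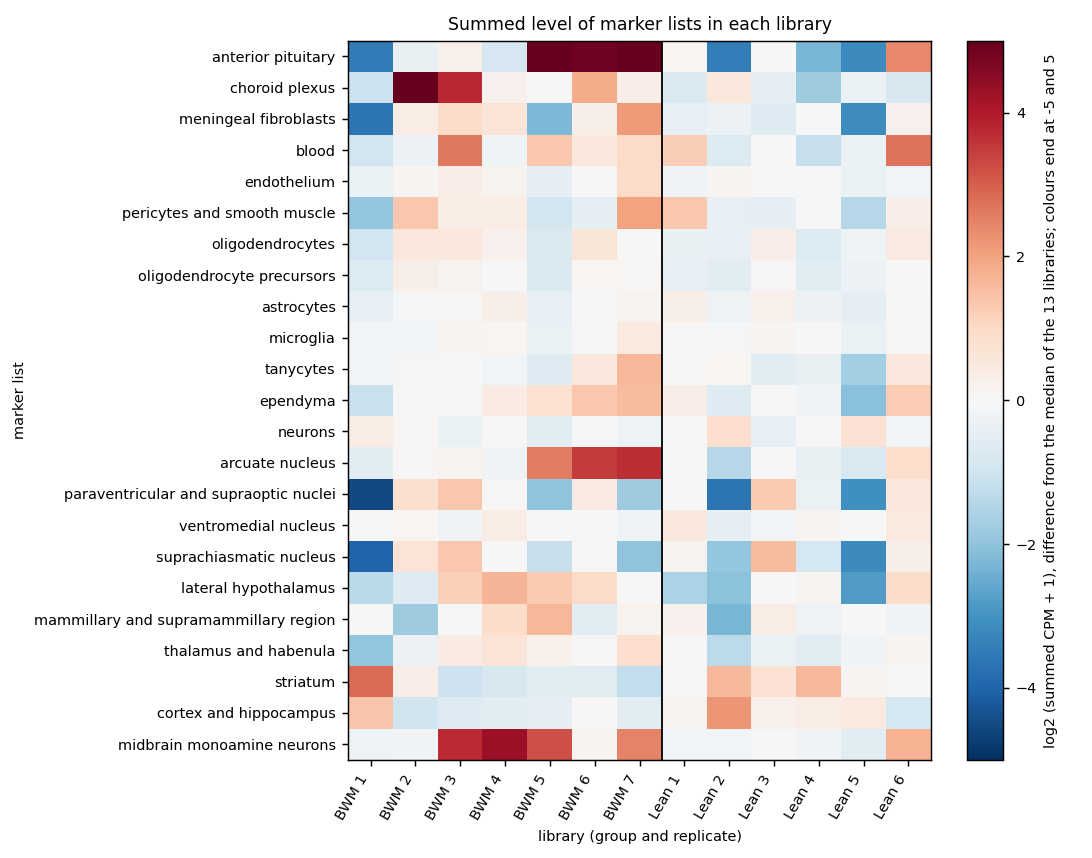
Summed level of 23 marker lists in each of the 13 libraries, as log2 of summed CPM plus 1, less the median over the 13 libraries. BWM 5, 6 and 7 are dark red for the pituitary (for BWM 6 and 7 mostly through Pomc, which is in the list), BWM 2 and 3 are red for the choroid plexus, and BWM 1, lean 2 and lean 5 are blue for the paraventricular and supraoptic nuclei.

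No gene was called different between BWM and lean animals. Genes counted as different when the adjusted p was under 0.05 and the log2 fold change was over 1 or under -1, and edgeR found 0 of 19818 genes tested (0% called), with a smallest adjusted p of 0.944. At an unadjusted p under 0.05 there were 608 genes (3.07% of those tested), 466 higher in BWM (2.35%) and 142 lower (0.717%). This count depended on single libraries: it was 2908 (1510 higher, 1398 lower) without BWM 1, 2075 (1515 higher, 560 lower) without lean 6, and between 262 and 634 with any other 1 left out, each time with 0 genes called. Without BWM 5, edgeR again called 0 of 19661 genes, the smallest adjusted p was 0.990, and 359 genes (1.83%) had an unadjusted p under 0.05, 217 higher (1.1%) and 142 lower (0.722%). DESeq2 called 2 of 30951 genes (0.00646%) with all 13 libraries, with 1050 (3.39%) at an unadjusted p under 0.05, and 1 gene without BWM 5. Without BWM 1, lean 2 and lean 5, edgeR called 0 of 20044 genes, with 1520 (7.58%) at an unadjusted p under 0.05, and more of these were lower (924, 4.61%) than higher (596, 2.97%) in BWM. With BWM 5 left out as well, it called 0 genes, with 713 higher (3.58%) and 858 lower (4.3%) at an unadjusted p under 0.05, together 7.88%.

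For most genes the interval of the difference was narrow. The median standard error of a log2 fold change was 0.22. For 14452 genes, 72.9% of those tested, the 95% interval of the log2 fold change lay wholly between -1 and 1. The fold change itself was over 1 for 402 genes and under -1 for 75. All intervals below are for single genes and are not adjusted for the number of genes tested. The adjusted p was 0.944 or higher for every gene with all 13 libraries.

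**Figure D2:**
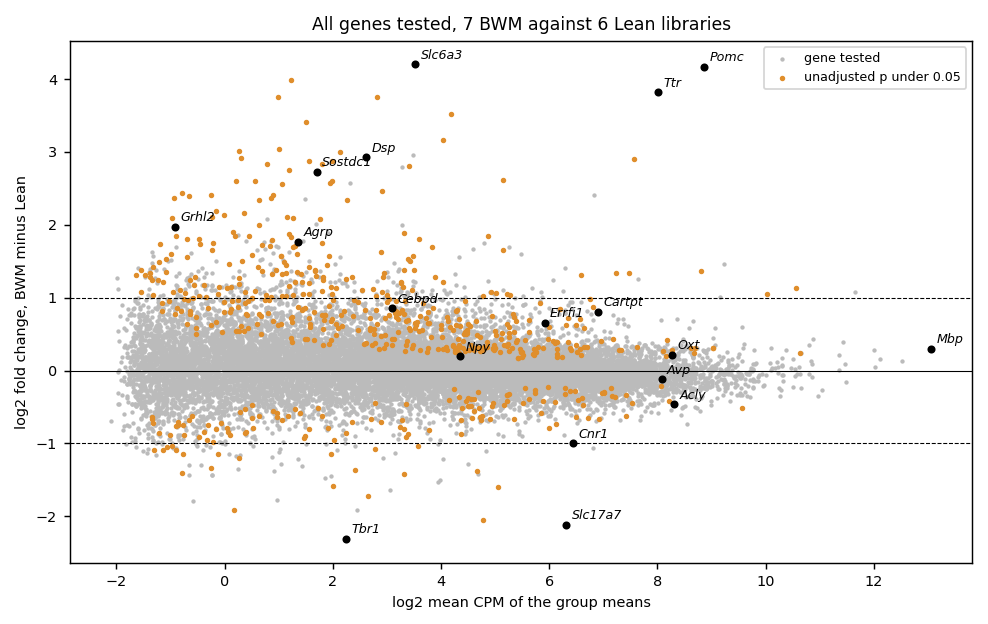
Log2 fold change (BWM minus lean) against the log2 mean CPM for the 19818 genes tested, with the 608 genes at an unadjusted p under 0.05 in orange and some named genes in black. Dashed lines mark a log2 fold change of 1 and -1, and no gene passed the adjusted threshold.

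The arcuate feeding peptides all had a positive log2 fold change, and for Agrp and Pomc the difference lay in 2 or 3 libraries. Agrp, the hunger peptide that blocks melanocortin receptors (chromosome 19, 37525941 to 37584875 of the Rnor_6.0 build), had a lowest, median and highest level of 0.584, 0.779 and 16.7 CPM in BWM and of 0.382, 0.749 and 3.65 CPM in lean libraries. BWM 6 (16.7 CPM) and BWM 7 (7.12 CPM) were above every lean library, lean 6 came next, and the other 5 BWM libraries lay within the lean range. The log2 fold change of Agrp was 1.77 (95% interval -0.16 to 3.70; adjusted p = 0.944). In bulk tissue, more cells of a type in the dissected piece and more RNA per cell cannot be told apart, for this and all further genes.

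Npy, the second peptide of the same neurons, had almost equal medians, 15.2 CPM in BWM and 17.3 in lean libraries. Its lowest and highest values were 5.38 and 62.8 CPM in BWM against 7.54 and 38.0 CPM in lean. The group ranges overlapped throughout except for BWM 6 at the top and BWM 3, 4 and 5 at the bottom, and the log2 fold change was 0.20 (95% interval -1.03 to 1.43).

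Pomc, the precursor of the satiety peptide alpha-MSH and, in the pituitary, of ACTH (chromosome 6, 28382937 to 28388771), had the widest range of the 4. It went from 3.38 CPM over a median of 84.9 to 2579 CPM in BWM, and from 2.90 over 37.8 to 125 CPM in lean libraries. Only BWM 5, 6 and 7, at 1223, 2185 and 2579 CPM, were above the lean range. The other 12 pituitary markers summed to 79536, 452 and 1276 CPM in these libraries and to 357 CPM in lean 6, where Pomc was 125 CPM. The log2 fold change was 4.17 (95% interval 0.94 to 7.39), and 4.05 without BWM 5 (0.67 to 7.43). The part of pituitary tissue in this value was not tested.

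Cartpt, made with Pomc in the arcuate nucleus and in many other hypothalamic neurons, ran from 90.4 over 117 to 276 CPM in BWM and from 13.4 over 89.6 to 208 CPM in lean libraries. All 7 BWM libraries lay above the lean median, while lean 2 and lean 5 were lowest at 13.4 and 14.4 CPM. The log2 fold change was 0.81 (95% interval -0.37 to 1.98) and 0.37 (-0.40 to 1.14) without BWM 1, lean 2 and lean 5. Over the 4 peptides the median log2 fold change was 1.29, against 0.03 over all genes tested. At an unadjusted p under 0.05, 1 was higher and 0 lower, beside 2.35% and 0.717% of all genes. On the scale of RPKM, CPM per kilobase of combined exon length, the lean medians were 91.5 for Cartpt, 38.7 for Pomc, 30.5 for Npy and 0.554 for Agrp, and the BWM medians were 119, 86.9, 26.9 and 0.575.

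**Figure D3:**
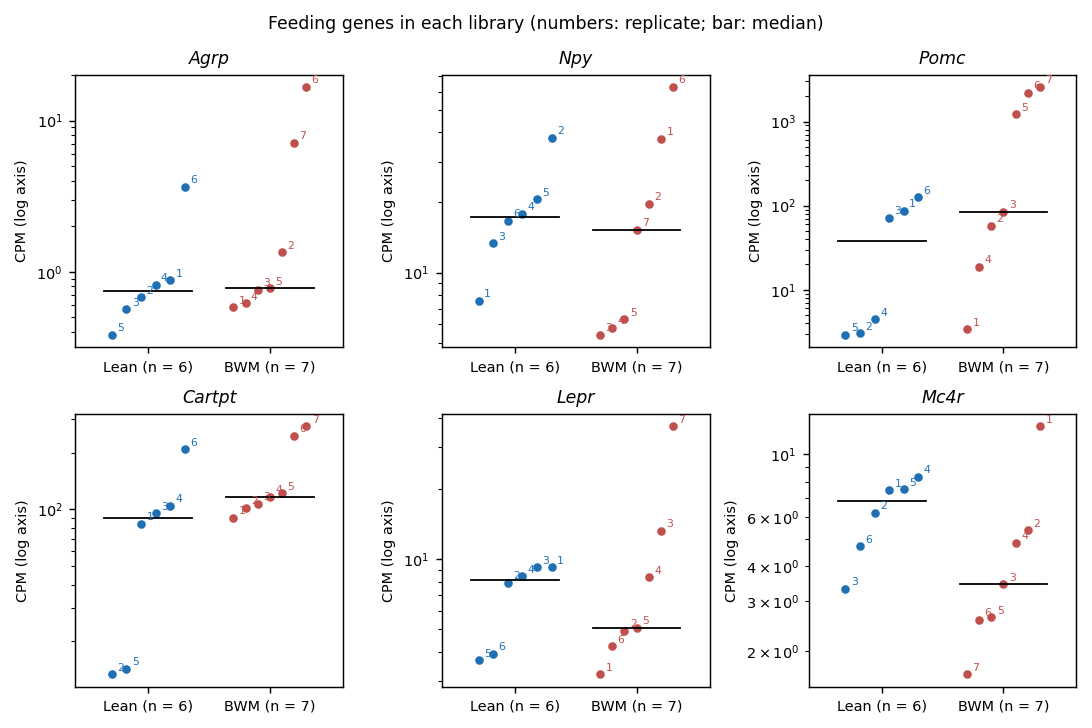
CPM on a log axis of the 4 arcuate peptides, the leptin receptor Lepr and the melanocortin receptor Mc4r in 6 lean and 7 BWM libraries. Points are libraries with their replicate number and bars are medians, and Agrp and Pomc are above the lean range in BWM 6 and 7 and, for Pomc, BWM 5.

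Feeding receptors and genes of leptin and insulin signalling had log2 fold changes near 0. Of 20 members, all tested, 0 were higher and 0 lower at an unadjusted p under 0.05 by edgeR, the median log2 fold change was -0.10, and values ran from -0.59 (Sim1) to 0.62 (Lepr). Lepr, the leptin receptor, had a lower median in BWM (5.08 CPM) than in lean libraries (8.17 CPM), and its positive fold change came with BWM 7 (36.9 CPM), where markers of meningeal fibroblasts were also highest (17012 CPM). The next highest BWM value was 13.2 CPM, in BWM 3, and the lean values ran from 3.69 to 9.20 CPM. The part of the meningeal markers was not tested.

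Among the receptors that read the arcuate signals, Mc4r, the melanocortin receptor of satiety, ran from 1.65 over 3.45 to 12.6 CPM in BWM and from 3.32 over 6.82 to 8.30 CPM in lean libraries. In 6 of 7 BWM libraries it was under the lean median, and BWM 1 was above every lean library. For Mc4r the log2 fold change was -0.40 (95% interval -1.28 to 0.48), and -0.82 (-1.61 to -0.03; adjusted p = 0.650) without BWM 1, lean 2 and lean 5. With BWM 5 left out as well, 0 genes of the list, and so not Mc4r, were lower at an unadjusted p under 0.05. The ghrelin receptor Ghsr was -0.39 (-1.63 to 0.85), with 2.89 CPM as the BWM median and 2.84 CPM as the lean one. Mc3r, the other brain melanocortin receptor, was 0.13, and the Npy receptors Npy1r, Npy2r and Npy5r were -0.00, -0.16 and -0.18. The GLP-1 receptor Glp1r was -0.04 (-0.88 to 0.80).

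Some kinase and adaptor genes of these pathways had narrow intervals. The insulin receptor substrate Irs2 had a log2 fold change of 0.02 (95% interval -0.27 to 0.32), Jak2, the kinase bound to the leptin receptor, of -0.20 (-0.58 to 0.17) and Stat3, its transcription factor, of 0.14 (-0.31 to 0.58). Differences over 2-fold lay outside the intervals of these 3 genes. Socs3, the feedback inhibitor induced by Stat3, was 0.53, with an interval that included 0 and the highest value in BWM 7 (12.8 CPM). The insulin receptor Insr was -0.22, Irs1 was -0.16, the transcription factor Foxo1 was -0.10 and the phosphatase Ptpn1, which acts on Jak2, was -0.10. Bdnf and its receptor Ntrk2, which act downstream of melanocortin signalling, were 0.19 and -0.06, and Nr5a1, the transcription factor of the ventromedial nucleus, was -0.16.

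**Figure D4:**
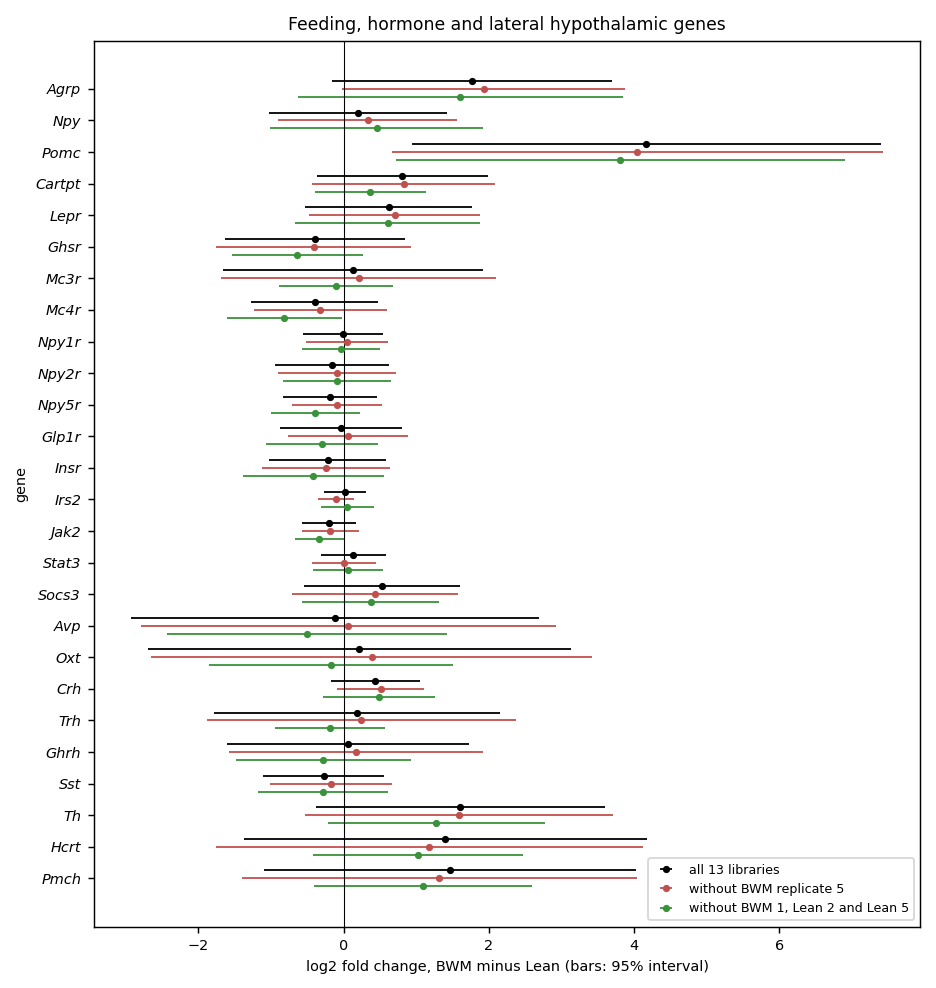
Log2 fold change (BWM minus lean) with its 95% interval for 26 feeding, hormone and lateral hypothalamic genes, with all 13 libraries (black), without BWM 5 (red) and without BWM 1, lean 2 and lean 5 (green). Only the intervals of Pomc lie above 0 under all 3 choices, and those of Avp, Oxt, Trh, Hcrt and Pmch are narrowest in green.

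Magnocellular and releasing hormones had no gene whose interval excluded 0 with all 13 libraries. Of the 13 members present, 12 passed the filter on low counts (Prlh did not), 0 were higher and 0 lower at an unadjusted p under 0.05 by edgeR, and the median log2 fold change was 0.08. Avp was -0.11 (95% interval -2.92 to 2.69; 0.07 without BWM 5) and Oxt was 0.22 (-2.70 to 3.13). Without the 3 libraries lacking both, they were -0.51 (-2.43 to 1.42) and -0.17 (-1.85 to 1.51). The intervals stayed wide, and BWM 5 and BWM 7 also had little of either. Trh, the releasing hormone of the thyroid axis, was 0.19 (-1.79 to 2.16) with all libraries and -0.19 (-0.95 to 0.57) without those 3.

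Crh, the hormone that starts the stress response, ran from 3.63 over 5.67 to 10.4 CPM in BWM and from 2.44 over 4.57 to 6.55 CPM in lean libraries. In 6 of 7 BWM libraries it was above the lean median, the ranges overlapped, and the log2 fold change was 0.44 (95% interval -0.18 to 1.05). Th, the rate-limiting enzyme of dopamine synthesis, was 1.61 (-0.39 to 3.60). It was highest in BWM 3 and BWM 4 (152 and 147 CPM), which also carried Slc6a3, the dopamine transporter, at 48.5 and 71.6 CPM. Slc6a3 was 24.0 CPM in BWM 5, 7.90 in BWM 7, 5.90 in lean 6 and at most 0.531 in the other 8 libraries. The transporter had a log2 fold change of 4.20 (0.87 to 7.53). The list of 8 markers of midbrain monoamine neurons, of which 3 passed the filter, summed to between 23.7 and 83.7 CPM in these 4 BWM libraries and to between 2.04 and 13.5 in lean libraries, and its part in the Th value was not tested.

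The remaining hormones had intervals that included 0. Sst was -0.27 (95% interval -1.10 to 0.56), Ghrh, the growth hormone releasing hormone, was 0.06, Gnrh1, which drives the gonadal axis, was 0.10, and its regulators Kiss1 and Tac3 were -0.06 and -0.59. Pdyn was -0.17 with all libraries and -0.80 (-1.31 to -0.29) without BWM 1, lean 2 and lean 5. Npvf was 0.91 (-1.96 to 3.79).

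In the lateral hypothalamus, Hcrt, the orexin gene that promotes wakefulness and feeding, ran from 0.0649 over 82.8 to 227 CPM in BWM and from 0 over 17.5 to 146 CPM in lean libraries. Pmch, the precursor of melanin-concentrating hormone, which promotes feeding, ran from 3.28 over 1116 to 1792 CPM in BWM and from 3.86 over 241 to 983 CPM in lean libraries. Both were above the lean median in 6 of 7 BWM libraries, and BWM 1 was the exception. The log2 fold changes were 1.40 (95% interval -1.37 to 4.18) for Hcrt and 1.47 (-1.09 to 4.02) for Pmch. Without BWM 1, lean 2 and lean 5 they were 1.02 (-0.43 to 2.47) and 1.09 (-0.41 to 2.60). Of the 5 lateral hypothalamic peptide and receptor genes listed, 0 were higher and 0 lower at an unadjusted p under 0.05 (median 0.23). With 10 libraries 0 were higher and 1 lower, beside 2.97% and 4.61% of all genes. Per kilobase of exon Pmch was the most abundant of them, at a mean of 836 RPKM. Of 13 other neuropeptide genes tested, 1 was higher and 0 were lower at an unadjusted p under 0.05 (median 0.19), beside 2.35% and 0.717% of all genes. The 1 gene was Nucb2, the precursor of the satiety peptide nesfatin, at 0.69 (0.09 to 1.28). Without BWM 5 Nucb2 was 0.40 and its interval included 0, and with 10 libraries it was 0.61 (0.04 to 1.19). There the list had 2 higher genes, Nucb2 and Cck (1.75), and 1 lower, Tac1 (-0.85), beside 2.97% and 4.61% of all genes. Cck and Tac1 were named after their values were seen. The granin gene Scg2 was 0.60 (-0.18 to 1.38), and 0.28 (-0.39 to 0.95) without BWM 5.

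The 10 genes with the smallest p and a higher level in BWM included 2 choroid plexus markers. Ttr, the thyroid hormone and retinol carrier made by the choroid plexus (chromosome 18, 15532963 to 15542180), ran from 23.4 over 62.6 to 2106 CPM in BWM and from 6.10 over 24.9 to 91.1 CPM in lean libraries. BWM 2, 3 and 6, at 2106, 880 and 223 CPM, were above the lean range and the other 4 BWM libraries within it. The log2 fold change was 3.82 (95% interval 1.40 to 6.24; adjusted p = 0.944). Sostdc1, a secreted BMP antagonist, was 2.73 (1.03 to 4.43), with 5 of 7 BWM libraries above every lean library and BWM 1 and 4 among the lowest. The 5 include BWM 5, where the choroid plexus markers summed to 67.4 CPM, within the lean range. Kl, the klotho gene, a choroid plexus marker that is not 1 of the 10, was 1.33 (0.41 to 2.24), and all 7 BWM libraries lay above its lean median.

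Of the choroid plexus markers all 10 were tested, 5 were higher and 0 lower at an unadjusted p under 0.05, beside 2.35% and 0.717% of all genes (Ttr, Sostdc1, Kl, Otx2 and F5, the last 2 named after their values were seen), and the median log2 fold change was 1.25. Without BWM 5 the count was again 5 with a median of 1.26, beside 1.1% of all genes. With 10 libraries it was 5 with a median of 1.01, beside 2.97% of all genes. Ttr was the most abundant of them per length, and the list summed to a median of 84.9 CPM in BWM and 45.1 CPM in lean libraries. Whether choroid plexus left on the dissected piece or its expression differed cannot be told apart.

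Grhl2, an epithelial transcription factor, had the smallest p of all genes (chromosome 7, 76058623 to 76197360). It ran from 0.336 over 0.615 to 2.002 CPM in BWM and from 0.117 over 0.186 to 0.406 CPM in lean libraries. The counts were low, 9 to 54 in BWM and 4 to 13 in lean libraries. It passed the filter largely through BWM, so that no conclusion is drawn from its rank. All BWM libraries but BWM 2 were above every lean library, and BWM 5 was the highest. Its log2 fold change was 1.97 (95% interval 0.99 to 2.95; adjusted p = 0.944) with all libraries and 1.58 (adjusted p = 0.990) without BWM 5. Dsp, the desmosome protein desmoplakin, was 2.93 (1.11 to 4.75), with 53.4 CPM in BWM 5 and between 1.27 and 8.06 CPM in the other BWM libraries. Without BWM 5 it was 1.35.

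Cebpd, a transcription factor induced by glucocorticoids and cytokines (chromosome 11, 89008008 to 89009146), ran from 5.49 over 11.1 to 15.1 CPM in BWM and from 4.49 over 5.39 to 8.59 CPM in lean libraries. In 6 of 7 BWM libraries it was above every lean library, and BWM 1 lay among the lean values. The log2 fold change was 0.86 (95% interval 0.34 to 1.37), 0.74 without BWM 5 and 1.04 (0.58 to 1.51; adjusted p = 0.569) without BWM 1, lean 2 and lean 5. The other 5 genes of the 10 had no gene name: LOC108352595 (1.22), LOC682225 (1.75), LOC102555053 (1.30), LOC100361645 (1.37) and the transcribed pseudogene LOC100360791 (0.93), which can share reads with its parent gene. Without BWM 5, LOC102555053 and LOC100361645 had too few counts to be tested. These 2 and LOC108352595 had at most 10 counts in any lean library, and passed the filter largely through BWM.

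Among the 10 with the smallest p without BWM 5, 4 of the higher and 7 of the lower genes were the same. New among the higher were Socs1, the cytokine signalling inhibitor, at 0.73, Kl, at 1.43, the lectin Clec4a at 0.95, and LOC102549596, LOC108351027 and LOC102553345 at 0.96, 1.31 and 1.69. LOC102553345 had at most 13 counts in any lean library and passed the filter largely through BWM, so that no conclusion is drawn from its rank. Socs1 was 0.67 (95% interval 0.21 to 1.14) with all 13 libraries, and 5 of 7 BWM libraries were above every lean library. New among the lower were RGD1562080, LOC103690135 and Olfm4, at -1.06, -1.45 and -1.05. LOC103690135 had at most 14 counts in any BWM library but BWM 5 and passed the filter largely through the lean group.

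**Figure D5:**
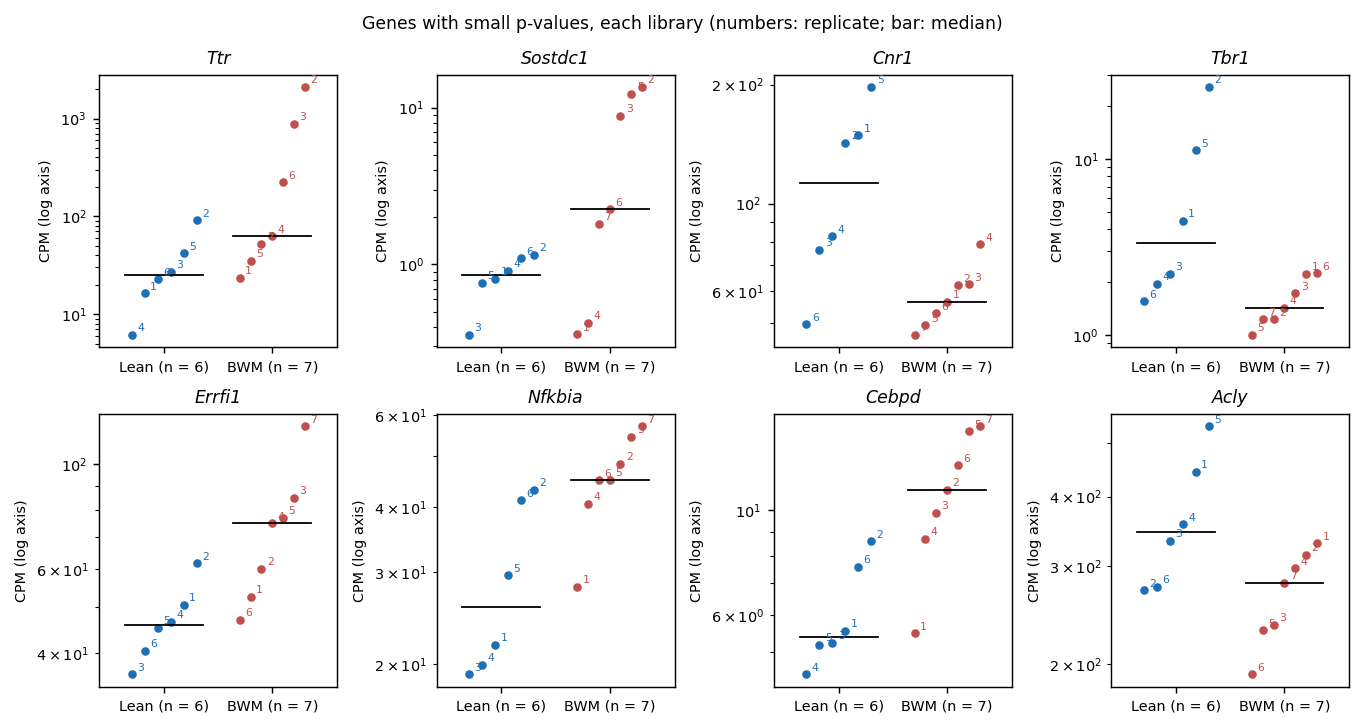
CPM on a log axis of 8 genes in 6 lean and 7 BWM libraries: choroid plexus (Ttr, Sostdc1), neurons (Cnr1, Tbr1), glucocorticoid response (Errfi1, Nfkbia), lipid synthesis (Acly) and Cebpd. Points carry the replicate number and bars are medians, and the groups overlap in all 8 genes.

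Among the genes with the smallest p and a lower level in BWM were genes of forebrain neurons. Cnr1, the cannabinoid receptor of nerve terminals (chromosome 5, 49307584 to 49333064), ran from 46.5 over 56.3 to 78.9 CPM in BWM and from 49.4 over 112 to 197 CPM in lean libraries. All 7 BWM libraries were under the lean median, but lean 6 was as low as they were, and lean 1, 2 and 5 were the highest. The log2 fold change was -0.99 (95% interval -1.57 to -0.42; adjusted p = 0.944) and -0.63 (-1.19 to -0.07) without BWM 1, lean 2 and lean 5.

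Tbr1, a transcription factor of cortical projection neurons, was -2.31 (95% interval -3.61 to -1.01) with all libraries and -0.81 (-1.55 to -0.06) without those 3. It was 25.8 CPM in lean 2 and 11.3 CPM in lean 5, and between 1.001 and 4.47 CPM in the other 11. Slc17a7, the vesicular glutamate transporter of cortex, was 608 CPM in lean 2 and 107 CPM in lean 5. Its log2 fold change was -2.11 with all libraries and 1.09 (-0.31 to 2.49) without the 3, so that its sign turned. Of the 12 markers of cortex and hippocampus 0 were higher and 2 lower at an unadjusted p under 0.05 (2.35% and 0.717% of all genes), with a median of -1.13 that became 0.33 without BWM 1, lean 2 and lean 5, where 0 were higher and 3 lower, beside 2.97% and 4.61% of all genes (Tbr1, Camk2a at -1.38 and Cux2 at -0.53, the last named after its values were seen).

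The potassium channel regulator Lrrc55 was -0.67 (95% interval -1.08 to -0.25), with 5 of 7 BWM libraries under every lean library. Further genes of these 10 had no gene name: LOC102556356 (-0.90), RGD1566251 (-0.73), LOC689268 (-0.51), LOC103694355 (-0.70), LOC103693260 (-1.92) and LOC682708 (-1.20). The last is a variable gene segment whose reads can be shared with near copies.

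Receptors for glycine, GABA and glutamate had mostly negative log2 fold changes: of 28 tested, 3 had a positive value, and the median was -0.39. At an unadjusted p under 0.05, 0 were higher and 1 lower, beside 2.35% and 0.717% of all genes. The 1 gene was Gabrb2, a GABA receptor subunit, at -0.63 (95% interval -1.20 to -0.06). It was -0.57 (-1.16 to 0.02) without BWM 5, where the list had 0 lower genes, and -0.30 (-0.71 to 0.11) without BWM 1, lean 2 and lean 5. Gria2, the AMPA receptor subunit that blocks calcium, was -0.61 (-1.25 to 0.03). It was 592 CPM in BWM 1 and between 179 and 264 CPM in the other 6 BWM libraries, while 5 lean libraries had 399 to 565 CPM and lean 6 had 173. Without BWM 1, lean 2 and lean 5 the list had 0 higher and 11 lower genes, Gria2 (-0.77) but not Gabrb2 among them, and a median of -0.43, against 2.97% higher and 4.61% lower over all genes tested.

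Striatal markers had mostly negative log2 fold changes under the same choice of libraries, and none had an adjusted p under 0.05. With all libraries 0 of the 12 striatal markers were higher or lower at an unadjusted p under 0.05 by edgeR and their median was -0.15. Without BWM 1, lean 2 and lean 5, 9 were lower, beside 4.61% of all genes, and the median was -1.64. Rarb, a retinoic acid receptor of striatal neurons, was 80.1 CPM in BWM 1, between 7.63 and 19.0 in the other BWM libraries and between 13.8 and 52.4 in lean libraries. Its log2 fold change was -0.34 with all libraries and -1.34 (95% interval -2.17 to -0.51; adjusted p = 0.569) without the 3. Penk, the enkephalin precursor and most abundant striatal marker, was -0.08 and -0.83, and Foxp1 was -0.26 and -0.57. The part of striatal tissue in the receptor values was not tested.

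All 22 genes listed as responsive to glucocorticoids, the receptors Nr3c1 and Nr3c2 among them, were tested. Of these, 19 had a positive log2 fold change (56.3% of all genes tested), and the median was 0.34 (0.03 over all genes). At an unadjusted p under 0.05, 4 were higher and 0 lower (2.35% and 0.717% of all genes). The 4 were Errfi1, an inhibitor of EGF receptor signalling, Nfkbia, the inhibitor of NF-kB, Sult1a1, a sulfotransferase, and Ddit4, an inhibitor of mTOR signalling (the last 2 named after their values were seen). The lists of inflammation, collagens, ribosomal proteins and pericytes had medians of like size (0.49, 0.48, 0.30 and 0.31). Errfi1 ran from 47.1 over 74.9 to 120 CPM in BWM and from 36.1 over 45.9 to 61.8 CPM in lean libraries. All 7 BWM libraries were above the lean median and 4 above every lean library. Its log2 fold change was 0.66 (95% interval 0.22 to 1.09).

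Nfkbia ran from 28.1 over 45.0 to 57.1 CPM in BWM and from 19.1 over 25.7 to 43.2 CPM in lean libraries. All 7 BWM libraries were above the lean median, and lean 2, 5 and 6 reached into the BWM range. Nfkbia had a log2 fold change of 0.65 (95% interval 0.17 to 1.12). Sult1a1 was 1.04 (0.13 to 1.96) and Ddit4 was 0.41 (0.03 to 0.79). Without BWM 5 the list had 3 higher genes, beside 1.1% of all genes, and a median of 0.34. Without BWM 1, lean 2 and lean 5 it had 9 higher and 0 lower genes, beside 2.97% and 4.61% of all genes, and a median of 0.52. No adjusted p of the list was under 0.05 under any of these choices, and the list summed to between 983 and 1404 CPM in BWM and between 742 and 1305 CPM in lean libraries, with lean 2 as the highest lean library.

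The inflammation list had 20 of 22 members tested, a median of 0.49 and 18 positive values. At an unadjusted p under 0.05, 1 gene (Nfkbia) was higher and 0 lower, beside 2.35% and 0.717% of all genes. With BWM 1, lean 2 and lean 5 left out, 5 were higher and 0 lower (2.97% and 4.61% of all genes) and the median was 0.39. Lcn2, the acute-phase protein lipocalin 2, was 0.99 (95% interval -0.07 to 2.05). The list summed to 677 CPM in BWM 7 and to between 236 and 455 CPM in the other BWM libraries, and to between 253 and 371 CPM in lean libraries.

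Most genes of lipid synthesis had a log2 fold change under 0, and none was called. Of 25 genes of cholesterol and fatty acid synthesis 5 had a positive log2 fold change, the median was -0.09, and 0 were higher and 2 lower at an unadjusted p under 0.05 (2.35% and 0.717% of all genes), and 0 and 1 with 10 libraries (2.97% and 4.61%). Acly, which makes the acetyl-CoA for lipid synthesis, ran from 192 over 280 to 330 CPM in BWM and from 272 over 345 to 535 CPM in lean libraries. All 7 BWM libraries were under the lean median, and the ranges overlapped. Its log2 fold change was -0.46 (95% interval -0.84 to -0.08), and -0.47 (-0.83 to -0.12; adjusted p = 0.587) without BWM 1, lean 2 and lean 5.

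Of 20 genes of fatty acid oxidation and ketone use 15 had a positive value, the median was 0.19, and 2 were higher and 1 lower at an unadjusted p under 0.05 (2.35% and 0.717% of all genes). The uncoupling protein gene Ucp2 was 1.31 (95% interval 0.08 to 2.55), with 495 CPM in BWM 5, and 0.46 without BWM 5. The carnitine carrier Slc25a20 was 0.30 (0.02 to 0.58), and 0.19 without BWM 5 with an interval that included 0. Without BWM 5 the list had 1 higher gene, Angptl4 at 0.35 (0.08 to 0.62), and 0 lower (1.1% and 0.722% of all genes), and with 10 libraries 1 higher and 0 lower (2.97% and 4.61%). Ppargc1a, the coactivator of mitochondrial genes, was -0.42 (-0.81 to -0.02) with all libraries (it and Angptl4 were named after their values were seen).

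Genes of the larger complexes had fold changes near 0. The 69 protein-coding oxidative phosphorylation genes tested had a median of 0.04 and ran from -0.14 to 0.20. The list has 2 further members, Ndufa13 and Cox6b1, whose symbols stand for pseudogenes in this annotation, and of all 71 members 0 were higher and 0 lower at an unadjusted p under 0.05 by edgeR. Ndufv3 of complex I was 0.16 (95% interval -0.12 to 0.44). The 31 proteasome genes had a median of 0.04, with 0 higher and 0 lower, and Psmb1 and Psma6 were 0.14 and 0.09.

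All 75 cytosolic ribosomal protein genes had a positive value, from 0.20 to 0.42, with a median of 0.30, and 3 were higher at an unadjusted p under 0.05, beside 2.35% of all genes. With RLE scaling all 75 were positive too. Rps4x was 0.42 (95% interval 0.04 to 0.80) and Rplp0 was 0.31 (0.03 to 0.59). The third, Rps2, was 0.28 (named after its values were seen). Rplp0 ran from 353 over 484 to 523 CPM in BWM and from 289 over 363 to 486 CPM in lean libraries. The list summed to 24990 CPM in lean 6 and to at most 16552 CPM in the other lean libraries, against 15178 to 25672 CPM in BWM, so lean 6 lay high in the BWM range. Without BWM 5 none of the 75 was at an unadjusted p under 0.05 and the median was 0.26, and with 10 libraries 2 were higher, beside 2.97% of all genes, and the median was 0.28.

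Of 24 endoplasmic reticulum stress and chaperone genes 2 were higher and 0 lower at an unadjusted p under 0.05 (median 0.27), beside 2.35% and 0.717% of all genes. The 2 were Herpud1 at 0.39 (95% interval 0.03 to 0.74) and the disulfide isomerase Pdia6 at 0.28 (0.00 to 0.57). Without BWM 5 there were 0 higher (median 0.11, 1.1% of all genes), and with 10 libraries 5 higher and 0 lower (median 0.37; 2.97% and 4.61% of all genes). With BWM 5 left out of the 10 as well, 1 was higher and 0 lower (median 0.24; 3.58% and 4.3% of all genes). In BWM 5 the list summed to 7939 CPM, the highest of the 13 libraries. The 21 collagen and matrix genes had a median of 0.48, 20 positive values and 0 genes higher or lower at an unadjusted p under 0.05 by edgeR. Fbln1 and Col6a2 were 0.90 (-0.36 to 2.16) and 0.61 (-0.29 to 1.51), and the list was highest in BWM 7 (6355 CPM) and lowest in BWM 1 (944 CPM).

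The 18 circadian clock genes had a median of -0.02, with 0 higher and 0 lower at an unadjusted p under 0.05 by edgeR, and Bhlhe40 and Npas2 were -0.45 and -0.46. Leaving out BWM 1, lean 2 and lean 5 gave 0 higher and 3 lower (2.97% and 4.61% of all genes). The 18 immediate early genes, which neurons induce when active, had a median of -0.08, again with 0 higher and 0 lower. Egr4 was -1.21 (95% interval -2.78 to 0.36; -0.74 without BWM 1, lean 2 and lean 5). Nr4a2 was 1.11 (-0.09 to 2.31), and 0.67 (-0.44 to 1.78) without BWM 5. The list summed to 2178 CPM in lean 2 and to at most 1437 CPM in the other libraries. Without BWM 5 its median was -0.31. Without BWM 1, lean 2 and lean 5 it was 0.72, with 2 genes higher and 1 lower (2.97% and 4.61% of all genes). With BWM 5 left out as well it was 0.29, with 1 gene higher and 2 lower (3.58% and 4.3% of all genes). Of 11 thyroid axis genes 1, Ttr, was higher and 0 lower with all libraries (median 0.04), beside 2.35% and 0.717% of all genes. Hr, a target of thyroid hormone, was 0.20 (-0.09 to 0.50).

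For glial markers the list medians were near 0. The median log2 fold change was 0.10 for 12 oligodendrocyte genes, 0.11 for 8 precursor genes, -0.01 for 10 astrocyte genes and 0.04 for 12 microglia genes, and in each of these lists 0 genes were higher and 0 lower at an unadjusted p under 0.05 by edgeR. The myelin gene Mbp was 0.30 (95% interval -0.39 to 0.98) and the astrocyte gene S100b 0.09 (-0.20 to 0.38). The microglial complement genes C1qc and C1qb were 0.27 and 0.19, the astrocyte enzyme Aldoc 0.18, the glutamate transporter Slc1a2 -0.63 (-1.17, 95% interval -2.23 to -0.10, without BWM 1, lean 2 and lean 5), Mobp and Aspa of myelin 0.39 and 0.28, and Olig1 and Bcas1 of precursors 0.18 and 0.32.

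Of all genes tested 56.3% had a positive log2 fold change. The 8 endothelial genes had a median of 0.29, 8 positive values and 0 higher or lower genes at an unadjusted p under 0.05 by edgeR, with Cldn5, Slc2a1 and Esam at 0.34, 0.24 and 0.37. Without BWM 5 Cldn5 was the 1 higher gene, at 0.42 (95% interval 0.01 to 0.83), beside 1.1% of all genes. The 8 genes of pericytes and smooth muscle had a median of 0.31 with 8 positive (Tagln 0.61, Pdgfrb 0.35, Kcnj8 0.26) and the 11 meningeal genes one of 0.89 with 11 positive (Ptgds 1.08, Igf2 1.01), again with 0 at an unadjusted p under 0.05. With the 9 libraries left without BWM 1, BWM 5, lean 2 and lean 5, 3 endothelial and 6 meningeal genes were higher and 0 lower, beside 3.58% and 4.30% of all genes. Meningeal genes summed to between 316 and 17012 CPM in BWM and between 443 and 4519 CPM in lean libraries. The 5 blood genes tested had a median of 0.03 (Hbb 0.05, Alas2 0.72, S100a9 -0.51). Of 10 tanycyte genes 1 was higher, beside 2.35% of all genes, and the list median was 0.36 (Scn7a 1.55, Vim 0.71). The 1 gene was Frzb at 1.70 (95% interval 0.08 to 3.32), with 75.8 CPM in BWM 7 and 49.1 in BWM 6 but at most 10.3 elsewhere. With 10 libraries the median was 0.30 and 2 were higher, Frzb (1.84) and Scn7a (1.28), beside 2.97% of all genes. The 9 ependymal genes had a median of 0.51, 9 positive values and 0 higher or lower genes (Rarres2 0.60, Tekt1 0.51).

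Neurons as a list had a median of -0.38, with 1 of 10 positive and 0 higher and 1 lower gene at an unadjusted p under 0.05 (2.35% and 0.717% of all genes). Without BWM 5 there were 0 of each, and with 10 libraries 0 higher and 2 lower (median -0.15; 2.97% and 4.61% of all genes): Gad2 at -1.30 (95% interval -2.49 to -0.11) and Rbfox3 at -0.94 (-1.75 to -0.13), both named after their values were seen. The 1 gene with all libraries was Syt1, the calcium sensor of transmitter release, at -0.52 (95% interval -1.03 to -0.01), and -0.28 (-0.72 to 0.16) without BWM 1, lean 2 and lean 5. Snap25 and Gad1 were -0.36 and -0.51, and 0.22 and -0.52 without those 3. The list was highest in lean 2 and lean 5 (6926 and 6407 CPM) and lowest in BWM 5 (2647 CPM).

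Marker lists of hypothalamic nuclei had medians of 0.32 for the arcuate nucleus, -0.04 for the paraventricular and supraoptic nuclei, -0.04 for the ventromedial nucleus, 0.01 for the suprachiasmatic nucleus, 0.13 for the lateral hypothalamus and 1.34 for the mammillary region. At an unadjusted p under 0.05 the only higher genes of these lists were Pomc and Lmx1a of the mammillary list (2.08; 95% interval 0.02 to 4.14). None was lower, and of all genes 2.35% were higher and 0.717% lower. With 10 libraries 1 was higher (Pomc) and 2 were lower, beside 2.97% and 4.61% of all genes. The 2 were Prok2 of the suprachiasmatic nucleus at -2.36 (-3.98 to -0.75; named after its values were seen) and Pdyn of the lateral hypothalamus at -0.80. Without BWM 5 Pomc was the only higher gene, beside 1.1% of all genes, and the medians of the mammillary and lateral lists were 1.06 and -0.02. Further members were Nos1 (-0.61, and -1.15 without BWM 1, lean 2 and lean 5) of the mammillary list, Scgn (-0.59) of the paraventricular nucleus, Six6 (2.80, and 0.49 without BWM 5) and Grp (-0.88, and 0.13 without BWM 1, lean 2 and lean 5) of the suprachiasmatic nucleus, Slit3 (-0.31) and Lypd1 (-0.24) of the ventromedial nucleus, and Lhx9 (0.67) and Nptx2 (-0.37) of the lateral hypothalamus. Of 11 genes of thalamus and habenula 11 were positive (10 with RLE scaling), with a median of 0.30 and 0 higher or lower genes (Lef1 0.46, Calb2 0.71). With 10 libraries 2 of them were higher, Nr4a2 (1.58) and Calb2 (0.68), beside 2.97% of all genes. Of 3 monoamine markers tested 1, Slc6a3, was higher (median 1.63; En1 1.63), beside 2.35% of all genes. Of 6 pituitary markers tested 2, Pomc and Lhb, were higher, with a median of 2.61, beside 2.35% of all genes. Without BWM 5 the median was 1.45, Lhb was 0.79 and 1 gene was higher, beside 1.1% of all genes. With 10 libraries 4 of 9 tested were higher (Gh1, Prl, Pomc and Lhb), beside 2.97% of all genes. Gh1 and Prl did not pass the filter with all 13 libraries, and nearly all their counts lay in BWM 5 and 7. The 10-library count is therefore not read as a result.

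In 8 genes, 0.0404% of those tested, the libraries of the groups did not overlap, 5 higher (0.0252%) and 3 lower (0.0151%) in BWM, all named after their values were seen. Oser1, an oxidative stress responsive gene (chromosome 3, 159784131 to 159802923), ran from 24.9 to 32.1 CPM in BWM and from 22.4 to 24.8 CPM in lean libraries. The gap was narrow, and the log2 fold change was 0.27 (95% interval 0.08 to 0.46; adjusted p = 0.944). Adcy2, an adenylyl cyclase of the brain, ran from 108 to 115 CPM in BWM and from 118 to 182 CPM in lean libraries, with a log2 fold change of -0.31 (-0.54 to -0.08). The BWM libraries were close together, lean 2 and lean 5 were the highest, and without BWM 1, lean 2 and lean 5 it was -0.16 (-0.36 to 0.03). The others were LOC682225 (1.75), Zcchc3 (0.33), Proca1 (0.55) and LOC103694037 (0.54) on the higher side and LOC103692950 (-0.62) and Pgbd1 (-0.56) on the lower side. Without BWM 5 the count was 14 (0.0712%).

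Some other settings called genes. In the fit of all 65 libraries 6 genes were called, all higher in BWM: Gh1, Prl, Fshb and Pou1f1 of the pituitary, Myo15a and Dsp (all named after their values were seen). BWM 5 had 5706 counts of Myo15a, against 44 to 162 in the other 12 libraries, and 3280 counts of Fshb, against at most 70. With BWM 5 left out of that fit, edgeR called 0 genes, with 752 at an unadjusted p under 0.05. The 2 genes called by DESeq2 were RGD1563270, with 206 counts in BWM 3, 27 in BWM 4 and 0 in the other 11 libraries, and Rasgrp4, a guanyl nucleotide exchange factor, with an adjusted p of 0.0160 and a log2 fold change of -1.44. Rasgrp4 had 40 to 92 counts in 6 BWM libraries, all under the 143 to 254 of the 6 lean libraries, and 759 in BWM 1. For that fold change DESeq2 had replaced the 759 by 135. Without this replacement, a choice made after seeing the data, the value was -0.30, DESeq2 gave the gene no p and called 1 gene, RGD1563270, and edgeR gave -0.30 (95% interval -1.69 to 1.09).

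The methods do not describe the diet or operation of the lean animals, which were taken to be the group kept on low-fat diet alone. No difference can therefore be assigned to restriction. The medians of the cortical and striatal lists depend on whether the 3 libraries with Avp and Oxt near 0 are kept.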

How the data were processed

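Poly(A) RNA of whole hypothalami, dissected frozen with nuclei not separated, was sequenced single-end from 1 animal per library. The authors trimmed reads with cutadapt, aligned them to Rnor_6.0 with STAR (2.7.2b) and counted them on RefSeq genes with featureCounts (1.6.4). Reads that map to several places or overlap genes were counted as fractions, so that the deposited values are expected counts, and 31.0% of the values above 0 were not whole. The members and lists were chosen with earlier results of these data known.

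Values were rounded, which moved no library total by over 0.00094%. Of 38513 genes, 19818 passed filterByExpr of edgeR (4.0.16; minimum count 10, minimum total 15). TMM scaling and the robust quasi-likelihood test (glmQLFit, glmQLFTest) compared 7 BWM with 6 lean libraries, with Benjamini-Hochberg adjustment over genes. DESeq2 (1.42.0, Wald test, no shrinkage) was run beside it, in R 4.3.3, and figures were drawn with Python 3.11.15 and matplotlib 3.10.9. CPM use the TMM-scaled library sizes, and RPKM divide them by the combined exon length. The genes named are the 10 with the smallest p in each direction with and without BWM 5, every member of the lists of arcuate peptides, feeding receptors and hormones, and from each other list the 2 with the smallest p and, for markers, the most abundant. Others are marked as named after their values were seen. Other settings left out each library, fitted all libraries of the batch or the series, used RLE scaling, no filter or no robust option, and left out several libraries together, the last chosen after seeing the data. Some genes that this rule names are not reported here.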

Additional observations from a re-analysis of the deposited data

Results flagged for a closer look

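In each group of 6 or 7 libraries, values were compared as log2 of CPM plus 1. They were singled out where the gap between the highest or lowest library and the next was a large part of the group's range on that scale. The CPM themselves are given below. Of 174 groups of values looked at 19 had such a library. The share that chance would give was not measured, and the values are not independent of one another.

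BWM replicate 1 stood apart most often. It was the lowest of its group in the summed level of lateral hypothalamic peptides (26.4 CPM), in thalamic markers (115 CPM), and in Trh (3.08 CPM), Hcrt (0.0649 CPM) and Pmch (3.28 CPM). It was the highest in striatal markers (6498 CPM), in markers of cortex and hippocampus (1010 CPM), in Gria2 (592 CPM) and in Rarb (80.1 CPM). BWM replicate 2 was highest in proteasome genes (5368 CPM).

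In the lean group, replicate 6 was the highest in ribosomal protein genes (24990 CPM), in monoamine markers (13.5 CPM), in Agrp (3.65 CPM) and in Slc6a3 (5.90 CPM), and the lowest in Gria2 (173 CPM). Lean replicate 5 was lowest in meningeal markers (443 CPM), lean replicate 2 was lowest in mammillary markers (8.02 CPM), and lean replicate 3 was highest in Gh1 (3.08 CPM) and in LOC103692950 (5.59 CPM).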

How the results depend on the processing

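With each library left out in turn edgeR called 0 genes, and the count at an unadjusted p under 0.05 ran from 262 (without lean replicate 5) to 2908 (without BWM replicate 1), against 608 with all 13. Without BWM replicate 1 the smallest adjusted p was 0.148, and without lean replicate 6 it was 0.447, with 2075 genes at an unadjusted p under 0.05. RLE scaling, no filter on low counts, no robust option and the fit of all libraries of batch A also gave 0 calls by edgeR, with 573, 1310, 618 and 1132 genes at an unadjusted p under 0.05. The fit of all libraries of both batches gave 6 genes called, all 6 also counted at an adjusted p under 0.05 alone, and 0 without BWM replicate 5. DESeq2 gave 2 genes called, 2 at an adjusted p under 0.05 alone, and 1 without BWM replicate 5. Without its replacement of outlier counts, a choice made after seeing the data, DESeq2 gave 1 gene called and 1 at an adjusted p under 0.05 alone, with 1012 at an unadjusted p under 0.05, and Rasgrp4 moved from -1.44 to -0.30 and was not called. The fit with the replicate number as a block used only replicates 1 to 6, and so left out BWM 7. It called 0 genes by edgeR, with 663 at an unadjusted p under 0.05, 263 higher and 400 lower. With all 13 libraries and no block 466 were higher and 142 lower, and with only BWM 7 left out 197 and 130. Under the block the list medians were -0.01 for endothelial, -0.03 for pericyte, 0.19 for meningeal and 0.04 for ependymal genes. BWM 7 was the highest library in the summed level of each of these lists, and the part of leaving it out was not tested. For ribosomal protein genes the median was 0.31 there. The correlations of the deviations of libraries with the same number ran from -0.361 (number 1) to 0.556 (number 6). Between 0 and 11 of the named genes had the opposite sign under any setting.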
